A study of Mus musculus with 4 samples.

Results

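Expression of 10 genes of bone and cartilage formation was followed in cultured mouse hair follicle mesenchymal cells. Runx2, Sp7, Bglap, Ibsp and Spp1 belong to the osteogenic side, and Sox9, Sox5, Acan and Comp to the chondrogenic side. Mgp, an inhibitor of calcification, was grouped here with the osteogenic genes. All 10 were taken by gene name from a raw count table of 51826 genes, in which each name had 1 row. Dermal papilla cells (DPCs), the mesenchymal cells at the base of the hair bulb, and dermal sheath cells (DSCs), which surround the follicle, were compared at passage 3 (low passage) and passage 9 (high passage). Each of these 4 groups was sequenced as 1 library, without replicates. The labels give the molecule as total RNA, while the methods describe purification of poly-A mRNA from it. All groups were grown in DMEM by re-plating and carried no other treatment. The labels give the genotype as WT, while the methods of the study describe vibrissal (whisker) follicles of young C57BL/6J mice, a few weeks old, that carry an EGFP transgene. Neither source says how many animals or cultures went into a library. Differences between groups therefore had no replicate check, and differences between libraries of technical origin cannot be told apart from those of passage or cell type.

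Osteoblasts and chondrocytes arise from shared mesenchymal progenitors. Runx2, with its partner Cbfb, commits cells to bone, Sp7 (osterix) acts after it, and mature osteoblasts secrete the matrix proteins osteocalcin (Bglap), bone sialoprotein (Ibsp) and osteopontin (Spp1). Sox9, with Sox5 and Sox6, drives the cartilage program, whose matrix holds aggrecan (Acan), type II collagen and cartilage oligomeric matrix protein (Comp). Matrix Gla protein (Mgp) keeps soft tissue and cartilage from calcifying. Follicle mesenchymal cells are known to form bone-like and cartilage-like cells when given inducing medium, which these cultures did not receive according to the labels.

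The library totals lay between 34981284 and 47604059 counts, and 22230 to 23548 genes had at least 1 count. A count of 0 allows up to 3 counts, or 0.0659 to 0.0837 CPM (counts relative to the scaled library total), for counting error only. Low counts showed an excess of even values in all libraries, with 1339 genes at 2 counts and 583 at 3 in low-passage DPCs. If both mates of a read pair were counted, that limit is 6 counts. The cell identity markers did not separate the cell types in 1 direction. Of the papilla genes, Sox2 had 1677 and 1491 counts in low- and high-passage DPCs and 269 and 178 in DSCs. Lef1 had 508 and 2 in DPCs and 101 and 55 in DSCs, and Crabp1 had 22409 and 14584 in DPCs and 1518 and 20405 in DSCs. Ncam1, with 3642 and 1673 counts in DPCs and 11755 and 15584 in DSCs, and Fgf7, with 4460 and 5804 against 6853 and 16216, were higher in DSCs at both passages. The 14 papilla markers summed to 1240 and 1810 CPM in DPCs and to 755 and 1870 in DSCs. These sums include Itga8, the most abundant of them, which is also on the sheath list. It had 186 and 968 CPM in DPCs and 44.2 and 511 in DSCs, so the sums do not tell papilla from sheath. The papilla marker alkaline phosphatase (Alpl, also an early osteoblast enzyme) had between 6 and 23 counts, Corin at most 10, and Wif1 was at 0 in all 4 libraries. The sheath marker Acta2 was abundant in both cell types, with 262118 and 67135 counts in DPCs and 217199 and 197315 in DSCs. Myh11 had 2882 and 168 counts in DPCs and 1063 and 3160 in DSCs, and Cnn1 had 5576 and 1683 against 3353 and 8001. The 6 sheath markers summed to 9790 and 3710 CPM in DPCs and to 8060 and 7060 in DSCs. With passage, 5 of them had a log2 change below 0 in DPCs and 3 in DSCs.

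Promoter sequences are shown for bone and cartilage matrix members and for Runx2, because the factors among the members are known to bind short DNA motifs. RefSeq sequences on GRCm38.p6 were found for 6 of the 10 members, and those of Sp7, Mgp, Sox9 and Comp were not analysed here. Capitals mark a RUNX core (ACCACA) or a SOX core (ACAATG, or its variant ACAAAG) on either strand. The lines give the bases upstream of the transcription start of Spp1 (chr5:104434861-104435110, plus strand), Bglap (chr3:88384467-88384716, minus strand), Acan (chr7:79052976-79053225, plus strand) and Ibsp (chr5:104299037-104299170, plus strand, the part outside annotated exons). A stretch of the Runx2 promoter (chr17:44814692-44814717, minus strand) comes last.
Spp1: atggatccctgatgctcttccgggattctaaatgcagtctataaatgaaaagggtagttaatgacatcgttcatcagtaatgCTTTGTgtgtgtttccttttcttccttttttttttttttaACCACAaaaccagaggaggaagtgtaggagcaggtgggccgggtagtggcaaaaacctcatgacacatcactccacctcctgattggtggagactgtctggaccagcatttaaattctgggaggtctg
Bglap: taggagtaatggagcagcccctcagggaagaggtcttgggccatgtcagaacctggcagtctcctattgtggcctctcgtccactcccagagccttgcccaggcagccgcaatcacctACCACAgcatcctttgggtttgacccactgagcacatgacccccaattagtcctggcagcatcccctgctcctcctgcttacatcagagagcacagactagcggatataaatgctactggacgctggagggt
Acan: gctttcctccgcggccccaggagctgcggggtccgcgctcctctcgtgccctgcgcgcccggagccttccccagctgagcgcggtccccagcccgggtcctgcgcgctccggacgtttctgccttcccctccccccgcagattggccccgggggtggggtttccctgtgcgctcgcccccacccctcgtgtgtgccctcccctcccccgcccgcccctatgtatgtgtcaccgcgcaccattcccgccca
Ibsp: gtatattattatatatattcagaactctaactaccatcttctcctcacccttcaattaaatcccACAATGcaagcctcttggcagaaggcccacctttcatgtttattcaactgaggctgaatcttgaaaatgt
Runx2: gaggtcacaaACCACAtgattctgtc

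In the 300-base window from 250 bases before to 50 after the start, ACCACA or its reverse complement TGTGGT occurred in 16.8% of 32851 promoters, the variant ACCGCA on either strand in 6.45%, ACAATG in 12.6% and ACAAAG in 18.7%. Positions count from the start, and the matches given here do not overlap each other. Spp1 held ACCACA at -128 and the reverse complement of ACAAAG, in capitals, at -168. Bglap held ACCACA at -132. Runx2 held 3 copies of ACCACA, at -80, 23 and 31, and the reverse complement of ACCGCA at 39. Sox5 and Ibsp each held ACAATG and no RUNX core, and the Acan window held none of the 4 motifs. The 250 bases before the start were 74.4% G and C in Acan, 56.4% in Bglap and 43.6% in Spp1, beside a median of 52.4% over all promoters. A second annotated Spp1 start, at position 104436192 of chromosome 5, had no RUNX core in its window and the reverse complement of ACAAAG at -243. A match describes letters only. The window shown for Spp1 and that of Bglap both held a RUNX core, and, as the values below show, Spp1 was among the most abundant transcripts while Bglap had at most 3 counts.

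Levels of the members differed over many orders of size (the plot of member levels). Levels between genes were compared on the deposited FPKM scale, in which fragments are divided by transcript length and library depth. Averaged over the 4 libraries, Spp1 was highest at 2694 FPKM, followed by Mgp at 279.8, Comp at 17.8 and Runx2 at 9.57. Acan at 1.37 and Sox9 at 1.07 came next. The order of Comp and Runx2 and that of Acan and Sox9 turned between libraries, with Comp and Acan the higher of their pair in low-passage DSCs and the lower in both DPC libraries. Bglap at 0.115, Sp7 at 0.109 and Sox5 at 0.0296 were near the limit of detection, and Ibsp was listed at 0. Spp1 and Mgp did not overlap any other member in any library. Acan and Comp ranged widest among the members above the limit, with the highest library 65.2 and 56.2 times the lowest, while Runx2 varied by 1.52 times.

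**Figure D1:**
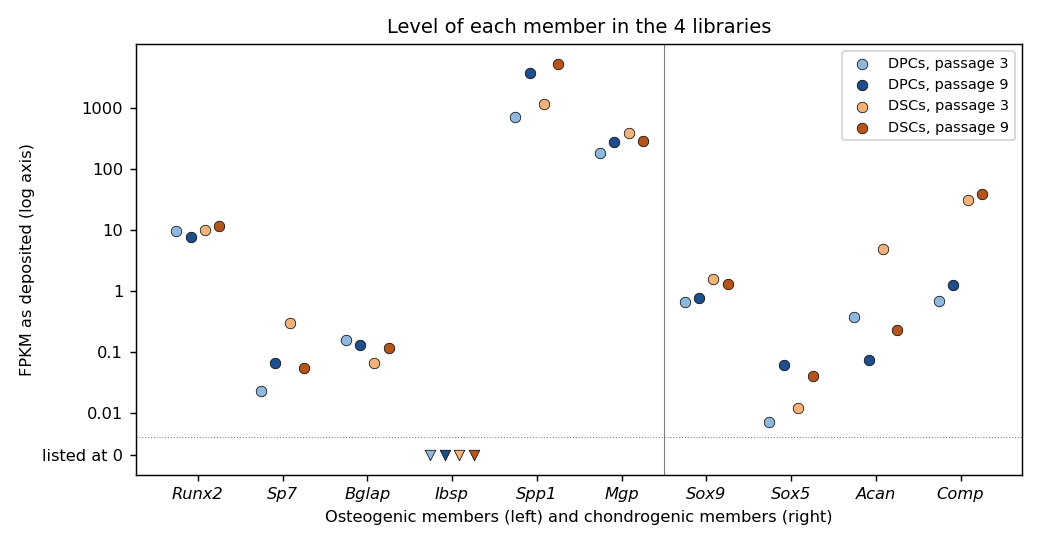
FPKM of each of the 10 genes in the 4 libraries on a log axis, with 1 point per library and triangles for values listed at 0. Spp1 lies above every other gene in every library, Runx2 stays within a narrow band, and the Comp points of DSCs lie far above those of DPCs.

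Changes with passage and differences between cell types were taken as log2 fold changes of TMM-scaled CPM, over the 16734 genes with a mean count of at least 10. Of the 10 members 7 were tested. Bglap, Ibsp and Sox5 were below the minimum. Sp7 passed only through its 38 counts in low-passage DSCs, with 3, 8 and 9 counts elsewhere. Its calls below are all against that library, so the filter favoured them and they add nothing beside the shares. Between passages in DPCs, 2 members were at least 4-fold apart, Spp1 higher and Acan lower, where 9.94% of all tested genes were (5.58% higher, 4.36% lower). In DSCs there were 3, Spp1 higher and Acan and Sp7 lower, where the share of all tested genes was 3.82% (2.67% higher, 1.16% lower). At passage 3, Acan, Comp and Sp7 were at least 4-fold lower in DPCs than in DSCs, beside 4.3% of all genes in either direction and 2.77% lower, and no member was higher, beside 1.52%. At passage 9 only Comp of the 7 was lower, beside 3.91% of all genes, and none was higher, beside 2.5%, or 6.42% in either direction. With fewer than 10 members, such counts are a description and carry no test. Intervals below are 95% counting intervals from the exact Clopper-Pearson method. They compare 2 libraries and not 2 conditions.

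Runx2 (ENSMUSG00000039153, chr17:44495987-44814797, minus strand, GRCm38), the master factor of osteoblast commitment, was expressed in every library. DPCs had 1821 counts at passage 3 and 1466 at passage 9, or 49.5 and 40.9 CPM, and DSCs had 2149 and 3178, or 56.7 and 69.8 CPM. DSCs were higher than DPCs at both passages, by more at passage 9. The log2 change from passage 3 to 9 was -0.28 (interval -0.38 to -0.18) in DPCs and 0.30 (0.22 to 0.38) in DSCs. DPCs against DSCs stood at -0.20 at passage 3 and -0.77 at passage 9. None of these passed 4-fold. Of its exonic bases 5.87% lie opposite the antisense gene Runx2os1, and the use of strand in counting is not given in the sources used here. Its DNA-binding partner Cbfb, named after its values were seen, had 2736 and 2137 counts in DPCs at passages 3 and 9 and 3162 and 3060 in DSCs.

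Sp7 (ENSMUSG00000060284, chr15:102356609-102366325, minus strand as deposited), the osteoblast factor that acts after Runx2, was close to the limit of detection. DPCs had 3 counts at passage 3 and 8 at passage 9, and DSCs had 38 and 9. Only low-passage DSCs stood apart, at 1.00 CPM against 0.0816 to 0.223 CPM in the others. In DSCs the level was 5.07-fold (2.41 to 11.9) lower at passage 9, and the log2 change, made smaller by the prior count, was -2.08. The ratio of low-passage DSCs to low-passage DPCs was 12.3 (3.90 to 62.2). In DPCs the passage ratio was 2.74 (0.656 to 16), which did not exclude equal levels. The 4-fold calls of Sp7 were lost with a prior count of 10 and on FPKM with a pseudocount of 0.1 or 1 added. The deposited FPKM without a pseudocount were 0.2936 in low-passage DSCs, 0.05435 in high-passage DSCs and 0.02262 in low-passage DPCs.

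The products of mature osteoblasts were split. Bglap (ENSMUSG00000074483, chr3:88383501-88384464, minus strand), which encodes osteocalcin, had 3 counts in both DPC libraries and 2 and 3 in DSCs at passages 3 and 9, and no fold was formed. Its neighbours Bglap2 and Bglap3 are near copies, and 56.6% of the 50-base windows of Bglap transcripts occur in them, so that their counts are uncertain. Bglap2 had 3 counts in low-passage DSCs and 0 elsewhere, and Bglap3 had 10 and 4 in low- and high-passage DSCs and 0 in DPCs. Ibsp (ENSMUSG00000029306, chr5:104299171-104311469, plus strand), bone sialoprotein, had 0 counts in all 4 libraries. A difference in either gene was not detectable at this depth.

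Spp1 (ENSMUSG00000029304, chr5:104435118-104441050, plus strand) encodes osteopontin, a secreted phosphoprotein of bone matrix that many other cell types also make. DPCs had 39849 counts at passage 3 and 204612 at passage 9, and DSCs had 71137 and 404313. Both high-passage libraries were above both low-passage libraries, and DSCs were above DPCs at each passage. The level was 5.27-fold higher at passage 9 in DPCs, a log2 change of 2.40 (2.38 to 2.41), and 4.73-fold higher in DSCs, 2.24 (2.23 to 2.25). In high-passage DSCs it took 0.849% of all counts and ranked 3 among all genes by FPKM, against rank 38 in low-passage DSCs. In DPCs the rank went from 85 to 13. DPCs stood below DSCs by 0.79 on the log2 scale at passage 3 and by 0.64 at passage 9. A share of 18.8% of its exonic bases lies in the same-strand gene model Gm42793, named after its values were seen, which had 55 and 427 counts in DPCs and 105 and 762 in DSCs.

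Macrophages and osteoclasts are further known sources of osteopontin. The macrophage markers summed to 124 CPM at passage 3 and 85.7 at passage 9 in DPCs, and to 172 and 105 in DSCs. Of these 8 markers 7 were tested, and 6 had a log2 change below 0 in DPCs and likewise 6 in DSCs. Cd14 was the exception, with 207 and 750 counts in DPCs and 268 and 550 in DSCs. The osteoclast markers summed to 166 and 71.1 CPM in DPCs and to 213 and 167 in DSCs, of which Ctsk made up most, and the defining genes Calcr and Dcstamp were at 0 in all 4 libraries. Oscar, a receptor of the osteoclast lineage, had 14 and 33 counts in DPCs and 0 and 41 in DSCs, at least 4-fold higher at passage 9 in DSCs, as Spp1 was. Both sums were lower at passage 9 in both cell types. The part of such cells in the result for Spp1 was not tested.

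Mgp (ENSMUSG00000030218, chr6:136872435-136875823, minus strand), the inhibitor of calcification, was the second most abundant member. It had 4371 and 6668 counts in low- and high-passage DPCs and 10326 and 9268 in low- and high-passage DSCs. Low-passage DPCs were the lowest library, and the other 3 lay between 185.9 and 272.5 CPM. The log2 change with passage was 0.65 (0.59 to 0.70) in DPCs and -0.42 (-0.46 to -0.38) in DSCs. DPCs were below DSCs by 1.20 on the log2 scale at passage 3 and by 0.13 at passage 9. Mgp needs gamma-carboxylation to work, and the gene of the carboxylase, Ggcx (named after its values were seen), had 2097 and 2385 counts in DPCs and 2590 and 3882 in DSCs.

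**Figure D2:**
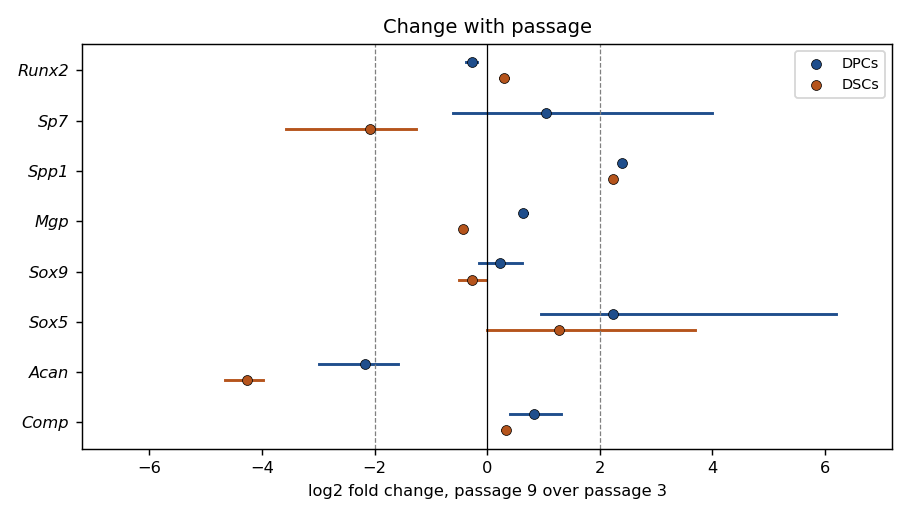
Log2 fold change of passage 9 over passage 3 for the 8 members with enough counts for a ratio, in DPCs and DSCs, with 95% counting intervals as bars and dashed lines at 4-fold. Spp1 lies beyond the upper line and Acan beyond the lower line in both cell types, while Runx2 and Mgp lie on opposite sides of 0 in DPCs and DSCs.

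Sox9 (ENSMUSG00000000567, chr11:112782224-112787760, plus strand), the main chondrogenic factor, was expressed at a low level in all libraries. It had 109 and 125 counts in low- and high-passage DPCs and 284 in both DSC libraries. Both DSC libraries, at 7.49 and 6.24 CPM, were above both DPC libraries, at 2.96 and 3.49 CPM. The log2 difference of DPCs from DSCs was -1.32 (-1.67 to -1.02) at passage 3 and -0.83 (-1.16 to -0.53) at passage 9. With passage the log2 change was 0.23 (-0.15 to 0.62) in DPCs and -0.26 (-0.51 to -0.02) in DSCs, the latter interval including 0 if the counts are halved for read pairs. None of these differences passed 4-fold.

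Sox5 (ENSMUSG00000041540, chr6:143828425-144781977, minus strand), which acts with Sox9 and Sox6, had 2 and 16 counts in DPCs and 4 and 15 in DSCs at passages 3 and 9. Both high-passage libraries were above both low-passage ones. The passage ratio was 8.20 (1.93 to 73.5) in DPCs and 3.12 (0.994 to 12.9) in DSCs, from a mean count of 9.25 that kept the gene out of the tested set. A share of 9.25% of its exonic bases lies opposite Sox5os1. Sox6, named after its values were seen, had 10 and 8 counts in DPCs and 50 and 14 in DSCs, so that it was highest in the same library as Acan and Sp7.

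Acan (ENSMUSG00000030607, chr7:79053483-79115099, plus strand) encodes aggrecan, the large proteoglycan that lets cartilage hold water. DPCs had 108 counts at passage 3 and 22 at passage 9, and DSCs had 1300 and 79. Low-passage DSCs, at 34.3 CPM, were far above the other 3 libraries, at 0.614 to 2.94 CPM. The level was 19.8-fold lower at passage 9 in DSCs, a log2 change of -4.27 (-4.65 to -3.98), and 24 of the 16734 tested genes, Acan included, were at least as low. In DPCs it was 4.79-fold lower, -2.17 (-2.99 to -1.59). This 4-fold call was lost with a prior count of 10 and on FPKM with a pseudocount of 0.1 or 1 added. The deposited FPKM without a pseudocount were 0.367 and 0.0737. DPCs were 11.7-fold below DSCs at passage 3, a log2 difference of -3.52 (-3.84 to -3.26). At passage 9 the log2 difference was -1.43 (-2.25 to -0.80). Of related proteoglycans, versican (Vcan, named after its values were seen) had 4134 and 3447 counts in DPCs and 5272 and 2913 in DSCs, and none of its differences was 4-fold.

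Markers of several other cell types were lower at passage 9 together with Acan. The Schwann cell markers summed to 8.46 and 3.65 CPM in DPCs and to 15.7 and 5.29 in DSCs at passages 3 and 9. At passage 9, 4 of 5 tested markers in DPCs and 3 of 5 in DSCs were at least 4-fold lower, beside 4.36% and 1.16% of all tested genes. Sox10, a neural crest factor of the Sox9 family, had 28 and 116 counts in low-passage DPCs and DSCs and 0 in both high-passage libraries. Endothelial markers summed to 2.42 and 0.112 CPM in DPCs and 5.65 and 1.08 in DSCs. Of 3 tested markers, 2 were at least 4-fold lower in each cell type, beside 4.36% of all tested genes in DPCs and 1.16% in DSCs. For skeletal muscle the sums were 41 and 1.84 CPM in DPCs and 48.9 and 24.8 in DSCs. Acta1 gave most of the sum in every library but high-passage DPCs, where it gave 0.362 CPM and Ttn 1.42. Ttn had 11 and 51 counts in DPCs and 14 and 32 in DSCs, while Myod1 and Ckm were at 0 in all 4 libraries. Their part in the result for Acan was not tested. Fewer cells of a type and less RNA per cell cannot be told apart in such libraries.

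Comp (ENSMUSG00000031849, chr8:70373558-70382066, plus strand) encodes a thrombospondin-family protein of cartilage and tendon matrix. It separated the cell types at both passages, with 66 and 116 counts in low- and high-passage DPCs and 3062 and 4613 in low- and high-passage DSCs. The DSC libraries, at 80.8 and 101.3 CPM, did not overlap the DPC libraries, at 1.80 and 3.24 CPM. The level in DSCs was 45.0-fold that in DPCs at passage 3, a log2 difference of DPCs from DSCs of -5.45 (-5.87 to -5.14), and 31.3-fold at passage 9, -4.95 (-5.25 to -4.70). Of all tested genes, 21 at passage 3 and 58 at passage 9 were at least as low in DPCs, Comp included. Only 1% of tested genes were at least 4-fold lower in DPCs at both passages. With passage the log2 change was 0.83 (0.40 to 1.31) in DPCs and 0.33 (0.26 to 0.39) in DSCs, which did not reach 4-fold.

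**Figure D3:**
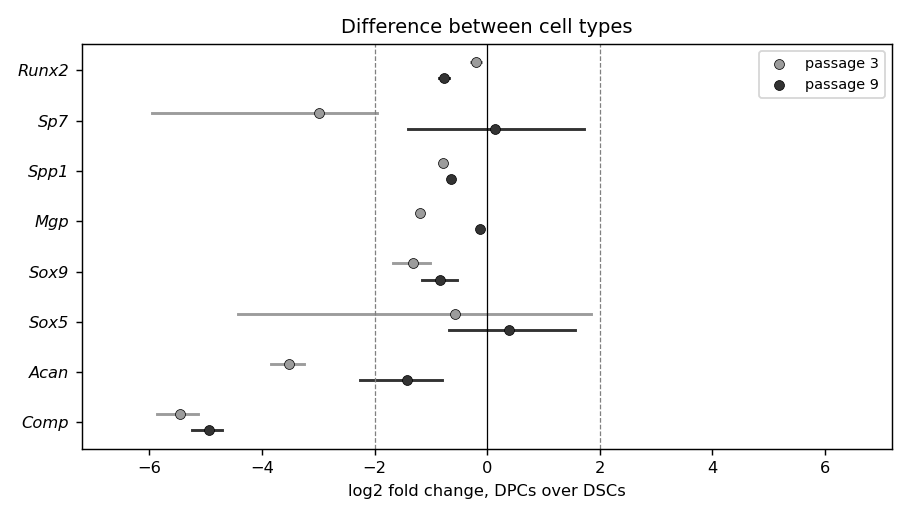
Log2 fold change of DPCs over DSCs at passage 3 and passage 9 for the 8 members with enough counts for a ratio, with 95% counting intervals as bars and dashed lines at 4-fold. Comp lies far below the lower line at both passages, Acan and Sp7 lie below it at passage 3, and no member lies above the upper line.

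The place of the 7 tested members among all genes is given by the plot of the passage change in DPCs against that in DSCs. Genes at least 4-fold higher at passage 9 in both cell types made up 1.27% of tested genes and included Spp1. Those at least 4-fold lower in both made up 0.508% and included Acan. The passage change of Acan was more negative in DSCs than in DPCs by 2.10 on the log2 scale, and that of Spp1 differed by 0.15. The change of Sp7 differed by 3.13, from counts between 3 and 38. The 2 changes of a member shared no library, but each rested on 1 library a passage.

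**Figure D4:**
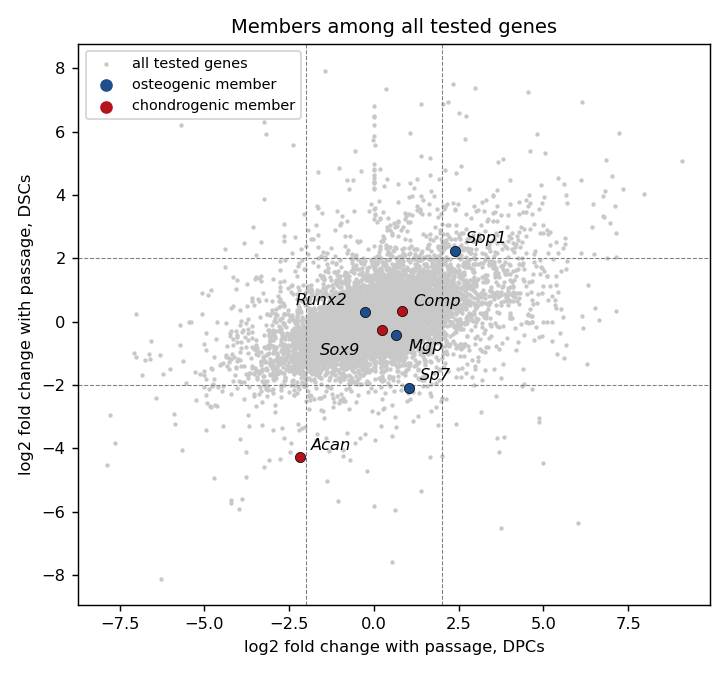
Log2 change with passage in DPCs (horizontal) and DSCs (vertical) for the 16734 tested genes in grey and the 7 tested members in colour, with dashed lines at 4-fold. Spp1 sits just beyond both upper lines and Acan beyond both lower ones, Sp7 lies below the lower line for DSCs alone, and Runx2, Mgp, Sox9 and Comp sit inside the central cloud.

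The wider bone program was read from a list of 41 osteogenic genes other than the members. Of these 32 were tested. In DPCs 4 were at least 4-fold higher at passage 9 and 1 lower, where 5.58% of all tested genes were higher and 4.36% lower. In DSCs 4 were higher and none lower, beside 2.67% and 1.16%. Medians of the log2 change were 0.18 in DPCs and 0.16 in DSCs, beside 0.0278 and 0.00307 over all genes, and 18 of 32 genes were above 0 in either cell type. Osteomodulin (Omd), a small proteoglycan of bone, was higher in both, with 239 and 1043 counts in DPCs and 143 and 1182 in DSCs, which was 4.47-fold and 6.88-fold. Tnfrsf11b, the osteoclast inhibitor osteoprotegerin, was 5.87-fold higher in DPCs (8267 to 47292 counts) and 1.05-fold higher in DSCs (14736 to 18669). Dlx5, a homeobox factor upstream of Sp7, was 11.7-fold higher in DSCs (13 to 182 counts) and stood at 8 counts in both DPC libraries. Spock3, a testican proteoglycan, had 2 and 3 counts in DPCs and went from 0 to 377 in DSCs. The latter was at least 104.6-fold higher against the limit of 3 counts, and the counting interval of the ratio reached down to 84.6. On the log2 scale that interval began at 6.40, or at 5.39 if the counts are halved for read pairs. The type I collagen gene Col1a1 was 5.95-fold lower at passage 9 in DPCs (266500 to 43703 counts), and in DSCs it had 405062 and 376457 counts. It is also on the list of 7 fibroblast markers, which summed to 24700 and 7320 CPM in DPCs and to 42600 and 38100 in DSCs. Of these 7, 5 had a log2 change below 0 in DPCs and 3 in DSCs.

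Between cell types the osteogenic list had medians of -0.55 at passage 3 and -0.50 at passage 9 for DPCs against DSCs, beside 0.00231 and -0.0142 over all genes, with 11 and 14 of 32 genes above 0. At least 4-fold lower in DPCs were 5 genes at passage 3, beside 2.77% of all genes, and 8 at passage 9, beside 3.91%, and none was 4-fold higher, beside 1.52% and 2.5%. No test was made of the list. Mmp13, the collagenase of hypertrophic cartilage and bone (named after its values were seen), had 33 and 26 counts in DPCs and 192 and 420 in DSCs. Bmp2, the osteoinductive ligand, also named after its values were seen, had 41 and 13 counts in DPCs and 24 and 140 in DSCs. It was 8.48-fold below DSCs in high-passage DPCs and 1.76-fold above them in low-passage DPCs.

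Of 42 chondrogenic genes other than the members, 41 were in the table and 25 were tested, while 8 had no count in any library. In DPCs 4 were at least 4-fold higher at passage 9 and 2 lower, beside 5.58% and 4.36% of all genes, and in DSCs 3 were higher and 2 lower, beside 2.67% and 1.16%. Medians were 0.10 and 0.13, beside 0.0278 and 0.00307 over all genes. Type II collagen (Col2a1), the main cartilage collagen, had 203 counts in low-passage DSCs, 2 in high-passage DSCs and 0 in both DPC libraries. The ratio of low- to high-passage DSCs was 122 (33.3 to 1014), and it rests on 2 counts, which lie under the limit of 3. The log2 change at passage 9, made smaller by the prior count, was -5.83. The library with Col2a1 was thus the one with the most Acan, Sp7 and Sox6. Some other cartilage matrix genes were 4-fold higher at passage 9 in at least 1 cell type. Cartilage intermediate layer protein (Cilp) was 15.4-fold higher at passage 9 in DPCs (174 to 2619 counts) and 1.72-fold higher in DSCs (5507 to 11409). Its relative Cilp2 had 0 and 63 counts in DPCs and 123 and 674 in DSCs. The rise was at least 21.5-fold in DPCs against the limit of 3 counts (interval of the ratio down to 17.0) and 4.56-fold in DSCs. On the log2 scale the interval in DPCs began at 4.09, or at 3.02 if the counts are halved for read pairs. Matn4, a matrilin, had 0 and 63 counts in DPCs and 61 and 118 in DSCs, and Col9a3, a chain of type IX collagen, had 0 and 18 in DPCs and 12 and 16 in DSCs. In DSCs the log2 change was 0.67 (0.23 to 1.16) for Matn4 and 0.13 (-1.02 to 1.36) for Col9a3, neither 4-fold. Matn3 had 18 and 4 counts in DPCs, a log2 change of -1.73, and Col11a1 had 13112 and 7927, a change of -0.69. Neither was called 4-fold lower on the log2 scale, which for the low counts of Matn3 is made smaller by the prior count. Both were named after their values were seen.

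Col10a1 and Hapln1, both named after their values were seen, moved in opposite directions in the cell types. Col10a1, the collagen of hypertrophic chondrocytes, was 10.1-fold lower at passage 9 in DPCs (2863 to 276 counts) and 5.72-fold higher in DSCs (1526 to 10483). Hapln1, the link protein that ties aggrecan to hyaluronan, had 23 and 2 counts in DPCs and 77 and 554 in DSCs. In DSCs it was 5.99-fold higher at passage 9 while Acan was 19.8-fold lower. Between cell types the chondrogenic list had medians of -0.65 at passage 3 and -0.67 at passage 9 for DPCs against DSCs, with 7 of 25 genes above 0 at each passage. At least 4-fold lower in DPCs were 7 genes at passage 3, beside 2.77% of all genes, and 5 at passage 9, beside 3.91%. At each passage 1 gene was 4-fold higher, beside 1.52% and 2.5%.

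**Figure D5:**
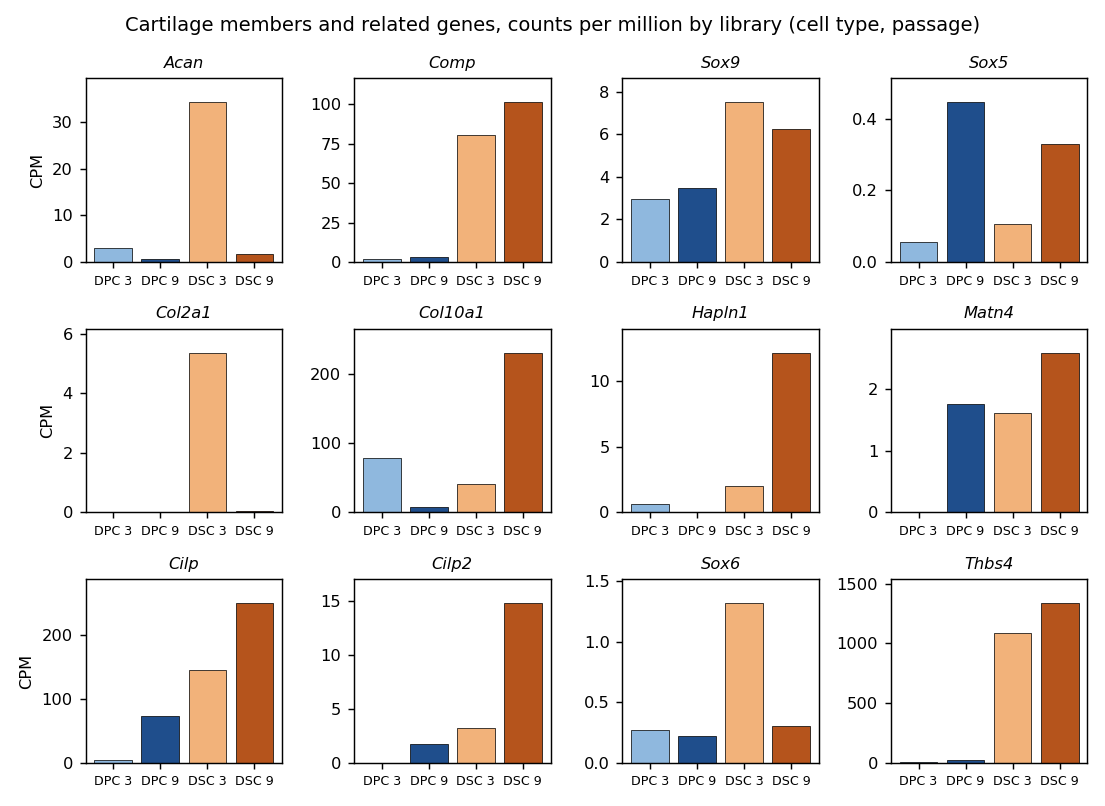
CPM of 12 cartilage-related genes, the 4 chondrogenic members first, as 1 bar per library on axes that start at 0 and differ between panels. Acan, Col2a1 and Sox6 are highest in low-passage DSCs, while Col10a1, Hapln1, Cilp and Cilp2 are highest in high-passage DSCs.

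Among 39 partners and regulators of the members, 37 were tested. In DPCs 1 was at least 4-fold higher and 1 lower at passage 9, where 9.94% of all genes passed in either direction, and in DSCs 1 was higher and none lower, beside 3.82%. The gene higher in both was the coactivator Ppargc1a, with 4 and 64 counts in DPCs and 0 and 23 in DSCs. Hey1, a Notch target that restrains Runx2, was 13.8-fold lower in DPCs (85 to 6 counts) and had 72 and 44 counts in DSCs. Medians were 0.05 in DPCs and -0.06 in DSCs. Of 25 close relatives of the members 17 were tested, of which 2 were 4-fold higher and 1 lower in DPCs, and 1 higher and 2 lower in DSCs, beside the same shares. Sp9, a relative of Sp7, was 23.5-fold higher in DPCs (39 to 895 counts) and 15.2-fold higher in DSCs (32 to 583). Sox8, of the Sox9 group, was 5.37-fold lower at passage 9 in DSCs (134 to 30) and had 39 and 17 counts in DPCs. Thbs3, a relative of Comp, was 4.76-fold higher in DPCs (678 to 3147) and 1.79-fold higher in DSCs (1098 to 2365). Thbs4, another relative of Comp that was named after its values were seen, had 313 and 887 counts in DPCs and 41307 and 60793 in DSCs. It was 128-fold higher in DSCs at passage 3 and 54.0-fold at passage 9.

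Genes with the most similar pattern were found by the Euclidean distance of centred log2 CPM over the 4 libraries among 12191 genes with a mean count of at least 100. Spp1 lay nearest to Sdk1 (0.33), Aldh1a1 (0.334) and Ccdc68 (0.38), and 8 genes lay within 0.5. Comp lay nearest to Gm42715 (0.454), Ptgis (0.462) and Chdh (0.539). Acan had no gene within 0.5, and its nearest were Musk (1.55), Asic3 (1.56) and Atp2a3 (1.6). Sox9 lay nearest to Mmp2 (0.0275), Raph1 and Plpp3, Mgp to 2810032G03Rik (0.123), Camk2n2 and Tbx15, and Runx2 to Fgfbp3 (0.0404), Slc25a15 and Fam151b. Runx2 had 1626 genes within 0.5. With 4 libraries such nearness describes a shape and says nothing of shared control.

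An additive model of cell type and passage was fitted over all 4 libraries by quasi-likelihood in edgeR, with p values adjusted by Benjamini-Hochberg over all tested genes. It leaves 1 residual degree of freedom, which measures how unlike the passage changes of the cell types are and not how replicate cultures vary. No tested gene passed an adjusted p of 0.05 for either term, while 2822 genes (16.9%) had an unadjusted p under 0.05 for passage and 1381 (8.25%) for cell type, and DESeq2's Wald test at the adjusted threshold called 955 (5.71%) and 496 (2.96%). For passage, the edgeR adjusted p was 0.188 for Spp1, with a log2 effect of 2.32, and 0.188 for Acan, with -3.37. Over the alternatives these ranged from 2.81e-13 to 0.319 for Spp1 and from 3.93e-06 to 0.319 for Acan, the lowest from DESeq2. For cell type, the edgeR adjusted p of Comp was 0.0683, with a log2 effect of -5.22, and ranged from 4.12e-45 to 0.101. For Acan it was 0.291, with -2.63, and ranged from 0.00109 to 0.49. The other tested members had edgeR adjusted p values of 0.342 or more for passage and 0.554 or more for cell type, Spp1 and Comp included for the term not named above.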

How the data were processed

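RNA sequencing was done on DPCs and DSCs at passages 3 and 9, 1 library each. The authors deposited raw counts per gene and, per library, FPKM values that they had scaled for transcript length and depth. The submitters' processing notes name Bowtie 0.12.2 and the builds mm8 and mm9, while the deposited positions of 9 of the 10 members equal those of GENCODE M21 on GRCm38 and that of Sp7 does not. The counting program and the use of strand are not given in the sources used here.

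Counts were scaled by TMM in edgeR 4.0.16 (R 4.3.3, limma 3.58.1), and genes with a mean count of at least 10 were tested. Fold changes are on the log2 CPM scale, the prior count being 2, called at 4-fold. That is the threshold the study reports in its results for passage, used here for cell type as well. Folds in words are ratios of CPM, and a fold against 0 counts was computed against 3 counts in that library. Ratios and intervals carry no prior count, so at low counts the log2 changes are smaller in size than the ratios. DESeq2 1.42.0, other scalings, prior counts, filters, FPKM with pseudocounts of 0.1 and 1, and a 2-fold threshold were alternatives. The scripts were tested on simulated data. Members and lists were chosen with earlier results of these data known. Other genes were named by a fixed rule: up to 4 per list past 4-fold in both cell types, up to 4 past it in 1, near copies of members, and the 3 nearest patterns. Vcan, Alpl, Ggcx, Cbfb, Gm42793, Sox6, Col10a1, Hapln1, Thbs4, Mmp13, Bmp2, Matn3, Col11a1 and genes of the marker lists given with counts were added after their values were seen. No value column was left unmapped.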

Additional observations from a re-analysis of the deposited data

Results flagged for a closer look

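A passage change of opposite sign in DPCs and DSCs, with both counting intervals excluding 0, was the reason to list the genes below. The list covers only genes for which an interval is given, and such genes were not tallied over the whole table. Markers without an interval also had opposite signs, among them Myh11 (-4.05 and 1.31), Cnn1 (-1.69 and 0.99) and Crabp1 (-0.58 and 3.48). Sp7 (1.05 and -2.08) and Sox9 (0.23 and -0.26) also had opposite signs, but their intervals in DPCs included 0. The difference between the cell types was not tested, since each change rests on 1 library a passage. Runx2 had a log2 change of -0.28 in DPCs and 0.30 in DSCs, a difference of -0.58. Mgp had 0.65 and -0.42, a difference of 1.07. Col10a1, the collagen of hypertrophic cartilage, had -3.33 and 2.51, a difference of -5.84. Hapln1, the aggrecan link protein, had -2.66 and 2.55, a difference of -5.21. Bmp2 had -1.495 and 2.19, a difference of -3.69. Col10a1, Hapln1 and Bmp2 were picked after their values were seen.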

How the results depend on the processing

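Of 224 fold changes of members under alternatives, 185 stayed within the counting interval, 39 moved beyond it and 0 changed sign. The number of genes at least 4-fold apart depended on the setting. For passage in DPCs it was 1663, and it became 354 on FPKM with a pseudocount of 1, 5210 at 2-fold, 2622 without a filter and 758 at a mean count of at least 100. For passage in DSCs it was 640, against 339 with a prior count of 10, 350 and 72 on FPKM with pseudocounts of 0.1 and 1, 2470 at 2-fold, 1254 without a filter and 210 at a mean count of at least 100. For the cell types at passage 3 it was 719, against 400, 392, 96, 2225, 1319 and 301 in the same order. The split there was 255 higher and 464 lower in DPCs, against 45 and 51 on FPKM with a pseudocount of 1. At passage 9 it was 1074, split 419 and 655, against 712 with a prior count of 10, 211 on FPKM with a pseudocount of 1, split 106 and 105, 3359 at 2-fold, 1805 without a filter and 458 at a mean count of at least 100. Members past 4-fold with passage in DPCs went from 2 to 1, losing Acan, with a prior count of 10 and on FPKM with either pseudocount. Members apart between cell types went from 3 to 5 at passage 3 and from 1 to 2 at passage 9 at 2-fold. Sp7 lost its calls in DSCs and at passage 3 with a prior count of 10 and on FPKM with either pseudocount. In the additive model, the passage term had 955 calls by DESeq2's Wald test and the cell type term 496, where edgeR called 0. For cell type edgeR called 5 genes with DESeq2 size factors and 13 at a mean count of at least 100, Comp among both with adjusted p of 0.0468 and 0.038. The cause of these moves was not tested, apart from the fewer or more genes that a filter or threshold leaves.

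No paired analysis was possible because each group has 1 library and the labels carry no replicate numbers. The additive model compares passages within cell types, which is a block by cell type and not by replicate. Each comparison rests on 2 libraries, so leaving out either would end it, and the comparisons that do not use that library would stay as they are apart from the shared scaling. Depth limits Bglap, Ibsp, Sp7 and Sox5, whose counts reached 38 at most.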
